A study of Mus musculus with 10 samples.

Results

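The genes described here encode the nuclear subunits of oxidative phosphorylation in tumour-associated macrophages. They were chosen by name: every gene whose symbol starts with Nduf, Uqcr, Cox4, Cox5, Cox6, Cox7, Cox8 or Atp5, together with Sdha, Sdhb, Sdhc, Sdhd, Cyc1 and Cycs. This gave 96 of the 21938 gene IDs, under 95 symbols because Atp5o stands on 2 IDs. By function they comprised 36 subunits of complex I, 8 complex I assembly factors (the Ndufaf genes), the 4 subunits of complex II, 9 of complex III, cytochrome c (Cycs), 20 genes of complex IV and 18 of complex V. Ndufa4 and its paralog Ndufa4l2 were counted with complex IV, of which Ndufa4 is now known to be a subunit. The subunits encoded by mitochondrial DNA were not analysed here.

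In oxidative phosphorylation, complex I takes electrons from NADH and complex II takes them from succinate. Complex III receives them through ubiquinone and hands them to cytochrome c, and complex IV passes them to oxygen. Complexes I, III and IV pump protons across the inner mitochondrial membrane, and complex V, the ATP synthase, uses the returning protons to make ATP. In macrophages the balance between this pathway and glycolysis is known to differ between activation states. Several subunits also have paralogs that are known to predominate in muscle, lung, testis or hypoxic cells.

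The macrophages were sorted from mammary tumours of C57BL/6 mice 5 weeks after PyMT tumour cells (mammary tumour cells driven by polyoma middle T) had been injected into 2 mammary glands. The Mertk KO group held 4 libraries from macrophage-specific MerTK KO mice carrying WT tumour cells. In the Ptdss1 knockdown group, 3 libraries came from WT mice with Ptdss1 knockdown tumour cells, so that there the tumour cells were altered and not the macrophages. Control comprised 3 libraries from WT mice with WT tumour cells. Mertk is a receptor for apoptotic cells, and Ptdss1 makes phosphatidylserine, the lipid by which such cells are recognised. The labels do not give the Cre line or the deleted part of Mertk, the number of knockdown clones, or whether libraries represent different or pooled mice. The p-values therefore reflect only library-to-library spread, which may be technical.

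Depth ran from 10292592 to 21321858 reads per library in Mertk KO, from 15927269 to 25815071 in Ptdss1 knockdown and from 14622749 to 24260871 in control. Genes with 10 reads or more numbered 9585 to 11484, 6995 to 11523 and 9066 to 11189 in the same groups. Ptdss1 knockdown replicate 1 stood apart by its missing genes: 31.5% of those that were otherwise widely read (10 reads or more in at least 7 other libraries) fell short of 10 reads there. That share was 13.1% in control replicate 2, 8.60% in Mertk KO replicate 3, 5.75% in Mertk KO replicate 4 and at most 1.28% elsewhere. All 8 macrophage markers were read in every library, with summed levels of 17459 to 30936 CPM (recovered reads scaled to the library total) in Mertk KO, 16057 to 23612 in Ptdss1 knockdown and 16452 to 24841 in control. Mertk itself was read in every library, at a log2 level of 10.63, 9.72, 9.24 and 8.95 in Mertk KO and 9.64, 9.26 and 10.97 in control, which does not check the labels because the deleted part is not given.

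The promoters of these genes are known for binding sites of NRF1, GABPA (also called NRF-2) and YY1, factors that act on many nuclear genes for mitochondrial proteins. RefSeq promoters on GRCm38.p6, covering 250 bases before to 50 after the annotated start, were matched for 73 of the 91 tested members. The letters GCGCATGC, an NRF1 core, stood on either strand in 13 of the 73 (17.8%), against 3.05% of the 27025 genes in the table. The GABPA core CCGGAAG stood in 18 (24.7%), against 9.93%, and the YY1 core AAGATGGC in 10 (13.7%), against 3.19%. At least 1 of the 3 stood in 34 (46.6%), against 14.9%. These are letter matches and not measured binding. The 73 members were all tested, but the 27025 genes were not limited to the genes tested or to the 21938 IDs. The shares therefore do not set the members apart from other expressed genes. The 120 bases before the RefSeq start are shown for 4 members that differ in how they varied between libraries, with the matches in capitals and each sequence along the gene's own strand.
Uqcr11 (complex III, chr10:80406822-80406941, minus strand, GABPA core): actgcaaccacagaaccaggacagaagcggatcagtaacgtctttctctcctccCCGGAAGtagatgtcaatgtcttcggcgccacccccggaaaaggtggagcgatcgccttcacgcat
Ndufa6 (complex I, chr15:82354292-82354411, minus strand, NRF1 core on the opposite strand): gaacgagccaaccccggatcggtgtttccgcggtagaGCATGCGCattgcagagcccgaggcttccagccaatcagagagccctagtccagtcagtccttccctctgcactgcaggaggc
Cycs (cytochrome c, chr6:50566570-50566689, minus strand, NRF1 core on the opposite strand): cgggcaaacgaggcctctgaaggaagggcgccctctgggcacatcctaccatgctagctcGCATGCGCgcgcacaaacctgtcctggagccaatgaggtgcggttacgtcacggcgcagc
Sdhb (complex II, chr4:140961151-140961270, plus strand, NRF1 core on the opposite strand): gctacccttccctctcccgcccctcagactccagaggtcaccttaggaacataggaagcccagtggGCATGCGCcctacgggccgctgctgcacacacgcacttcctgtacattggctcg
The log2 levels of Uqcr11 and Ndufa6 had SDs of 1.001 and 0.98 over the 10 libraries and those of Cycs and Sdhb 0.36 and 0.37. The median SD was 0.92 for genes that are not members and had a mean level of at least 7. These 4 were picked for their difference in SD, so they cannot show whether matches go with variation, which was not tested.

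Transcripts of the respiratory chain were abundant. Levels are log2 of normalised reads plus 1, as deposited. The tested members had a median level of 11.25, against 7.94 for all 11564 genes tested, and 79 of the 91 tested members lay above that median. Set on a scale of log2 normalised reads per kilobase of transcript and averaged over the 10 libraries, the highest level per length among the tested members of each complex was that of Ndufc2 in complex I (12.68), Sdhb in complex II (12.18), Uqcrb in complex III (13.03), Cox4i1 in complex IV (13.12 to 15.23 over the libraries) and Atp5e in complex V (13.30). The lowest among the tested members were Ndufs1 (7.84), Sdha (9.22), Uqcrc2 (9.13), Cox6b2 (4.31) and Atp5s (6.22), and among the assembly factors Ndufaf8 (10.09) was highest and Ndufaf7 (5.83) lowest. Ndufs1 and Sdha are large catalytic subunits that carry iron-sulphur clusters and flavin, and Cox4i1, Cox6b1 (13.80) and Cox8a (13.80) are small nuclear subunits around the catalytic core of complex IV. The transcript length is the median of the annotated coding transcripts, so levels per length are approximate.

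Of the 96 members, 91 had at least 10 reads in at least 3 libraries and were tested, and 81 had at least 10 reads in every library. Cox7b2, Cox8b and Cox8c had 0 reads in all libraries. The second Atp5o ID, which shares exon bases with the first and with Donson on the same strand, had 2 reads each in Mertk KO replicates 2 and 3 and none elsewhere. Ndufa4l2, a paralog of Ndufa4 known as a hypoxia-induced gene, is the other untested member. In Mertk KO replicates 1 to 4 its reads numbered 21, 8, 1698 and 0, and Ptdss1 knockdown and control had none, so that nearly all came from Mertk KO replicate 3. There its log2 level was 10.43 and it made up 48.3% of the Ndufa4 and Ndufa4l2 levels per length. Ndufa4l2 (chromosome 10, 127514967 to 127517154, plus strand, GRCm38) shares exon bases with Shmt2 on the other strand. Shmt2 had 530 reads in that library and 371 and 444 in Ptdss1 knockdown replicates 2 and 3, where Ndufa4l2 had none.

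No member passed the threshold in any comparison. For Mertk KO against control, 0 of 91 members were called (limma adjusted p below 0.05 over all genes), where 0.0173% of all 11564 genes did. In Ptdss1 knockdown against control it was 0 of 91 members and 0% of all genes, and in Mertk KO against Ptdss1 knockdown again 0 of 91 and 0%. At an unadjusted p below 0.05 the members also numbered 0 of 91 in each of the 3 comparisons, beside 2.06%, 2.90% and 3.73% of all genes. These counts do not show that the groups were alike: the SE of a member's log2 fold change had a median of 0.58 over the 3 comparisons, with a 10th percentile of 0.44 and a 90th of 1.32. The comparisons with control share the control libraries, and all comparisons share 1 estimate of the spread.

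**Figure D1:**
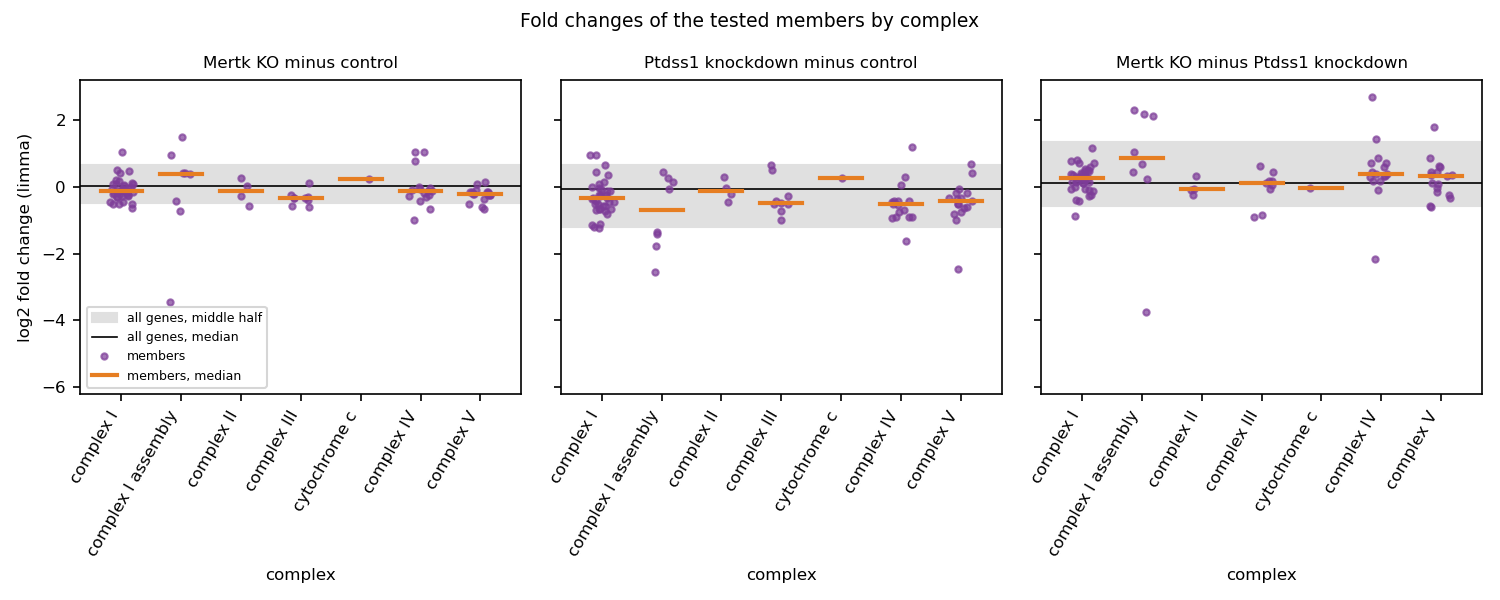
Log2 fold changes (y axis, limma fit) of the 91 tested members by complex in the 3 comparisons. Each purple point is a gene, the orange bar is the median of the complex, the black line is the median of all 11564 genes and the grey band spans their lower to upper quartile. Most members lie within the grey band, and the assembly factors are widely spread, down to -3.46 for Ndufaf5 in the left panel.

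With all libraries in the fit, the median member lay below control in both comparisons, but the amount and the direction depended on single libraries. Their median log2 fold change for Mertk KO against control was -0.16, with 27 positive and 64 negative values, against a median of 0.016 for all genes. For Ptdss1 knockdown against control it was -0.43, with 20 positive and 71 negative, against -0.053 for all genes. For Mertk KO against Ptdss1 knockdown it was 0.30, with 66 positive and 25 negative, against 0.11. Leaving out Ptdss1 knockdown replicate 1 moved the median for Ptdss1 knockdown against control to 0.022 and that for Mertk KO against Ptdss1 knockdown to -0.21, and leaving out Ptdss1 knockdown replicate 2 moved them to -0.84 and 0.76. Control replicates 2 and 3 acted in opposite ways. Without replicate 2 the medians against control were -0.55 for Mertk KO and -0.88 for Ptdss1 knockdown, and without replicate 3 they were 0.20 and -0.021. Without Mertk KO replicate 1, 2, 3 or 4, the median for Mertk KO against control was -0.27, -0.41, -0.048 and 0.035, and without replicate 1 or 2 that for Mertk KO against Ptdss1 knockdown was 0.13 and 0.083.

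By complex, the median log2 fold changes in Mertk KO against control were -0.12 for complex I, 0.39 for its assembly factors, -0.12 for complex II, -0.34 for complex III, -0.11 for complex IV and -0.23 for complex V. In Ptdss1 knockdown against control they were -0.35, -0.70, -0.13, -0.49, -0.53 and -0.41 in the same order. In Mertk KO against Ptdss1 knockdown they were 0.28, 0.86, -0.079, 0.13, 0.38 and 0.31. Within complex I the 7 core subunits, which carry the electrons, had medians of 0.10 and -0.045 in Mertk KO and in Ptdss1 knockdown against control, and the 29 accessory subunits -0.14 and -0.46. Within complex V the 5 F1 subunits, which form the catalytic head, had -0.16 and -0.18, and the 11 tested membrane and stalk subunits -0.23 and -0.51. These medians by complex rested on single libraries. Leaving out each library in turn, the median for Mertk KO against control ran from -0.52 (without control replicate 2) to 0.28 (without control replicate 3) for complex I, from -0.62 to 0.42 for complex IV and from -0.53 to 0.13 for complex V, with the same 2 libraries at the ends. For complex III it ran from -0.63 to -0.16 with those libraries, for complex II from -0.22 to -0.035 without Mertk KO replicates 4 and 1, and for the assembly factors it turned to -0.22 without control replicate 2. For Ptdss1 knockdown against control, the medians without Ptdss1 knockdown replicate 1 were 0.054 for complex I, 0.51 for the assembly factors, -0.15 for complex II, -0.11 for complex III, -0.046 for complex IV and -0.0011 for complex V. Without Ptdss1 knockdown replicate 1, the medians for Mertk KO against Ptdss1 knockdown were -0.21, -0.34, -0.027, -0.21, -0.20 and -0.23 in the same order. The core and accessory subunits of complex I had medians of 0.41 and 0.032 for Ptdss1 knockdown against control without that library.

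When the values were centred within classes of coding length, an alternative chosen after seeing the data, the median of the members was -0.11 in Mertk KO against control (all genes -0.016), 0.024 in Ptdss1 knockdown against control (all genes 0.25) and -0.098 in Mertk KO against Ptdss1 knockdown (all genes -0.23).

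Summed over all members, the share of a library's reads was 2.14%, 2.49%, 1.34% and 1.17% in Mertk KO, 0.797%, 2.51% and 1.58% in Ptdss1 knockdown and 1.88%, 1.28% and 2.78% in control. The means were 1.78% ± 0.633 (SD, n = 4) in Mertk KO, 1.63% ± 0.855 (SD, n = 3) in Ptdss1 knockdown and 1.98% ± 0.754 (SD, n = 3) in control, and the 3 ranges overlap. Within each group the highest library exceeded the lowest by more than the group means differed. In sorted cells measured in bulk, less RNA per cell and fewer cells of a given state cannot be told apart.

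The complexes did not share this spread evenly. Complex IV took 0.596%, 0.680%, 0.319% and 0.246% of reads in Mertk KO, 0.127%, 0.668% and 0.349% in Ptdss1 knockdown and 0.447%, 0.287% and 0.835% in control. Complex II took 0.0685%, 0.0840%, 0.0779% and 0.0895% in Mertk KO, 0.0690%, 0.0789% and 0.0860% in Ptdss1 knockdown and 0.107%, 0.0880% and 0.0853% in control. Complex II, succinate dehydrogenase, which also belongs to the TCA cycle, therefore stayed within a narrow band while complex IV moved several-fold between libraries of the same group. Complex I followed complex IV, with shares of 0.356% to 0.861% in Mertk KO, 0.227% to 0.824% in Ptdss1 knockdown and 0.363% to 0.929% in control.

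**Figure D2:**
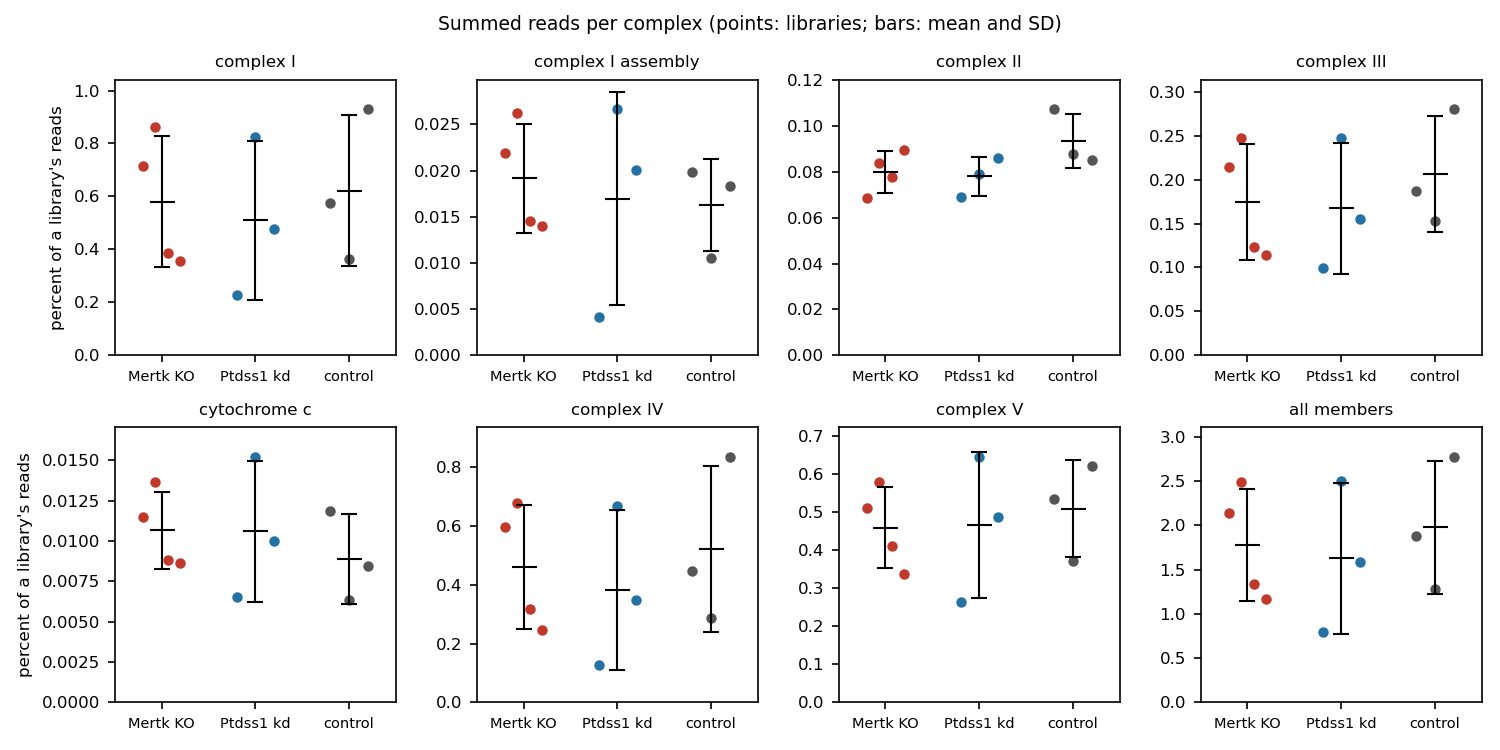
Percent of each library's reads (y axis, from 0, scaled per panel) summed over the genes of each complex and over all members. Points are libraries, and bars are the mean and SD of Mertk KO (n = 4), Ptdss1 knockdown (n = 3) and control (n = 3). The groups overlap for every complex, and complex II is the panel with the least spread relative to its level.

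Within every group, the spread went with the length of the coding sequence. Each gene's level was set against its own mean over the 10 libraries, for the 83 members with a mean level of at least 7. Of the 37 such members with a coding length up to 400 bases, 36, 37, 1 and 0 lay above their own mean in Mertk KO replicates 1 to 4. In Ptdss1 knockdown replicates 1 to 3 it was 0, 37 and 2, and in control replicates 1 to 3 it was 28, 2 and 36. Short subunits were thus high together in Mertk KO replicates 1 and 2, Ptdss1 knockdown replicate 2 and control replicate 3. They were low together in Mertk KO replicates 3 and 4, Ptdss1 knockdown replicate 1 and control replicate 2, and slightly low in Ptdss1 knockdown replicate 3. Their median deviation on the log2 scale was 0.67, 0.86, -0.59 and -0.63 in Mertk KO, -1.36, 0.72 and -0.27 in Ptdss1 knockdown and 0.097, -0.70 and 1.17 in control.

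The 11 members with more than 1000 coding bases did not follow them in most libraries. Their median deviation was -0.44, -0.13, 0.21 and 0.44 in Mertk KO, 0.34, -0.020 and 0.54 in Ptdss1 knockdown and 0.41, -0.45 and 0.031 in control. In Mertk KO replicates 1 and 2, where the short subunits were high, 2 and 3 of these 11 lay above their mean, and in Mertk KO replicates 3 and 4, where the short subunits were low, 8 and 10 did. In Ptdss1 knockdown replicates 1 to 3 it was 7, 4 and 9, and in control replicates 1 to 3 it was 8, 3 and 7, so that in control replicate 2 the long members were low together with the short ones. Genes outside the pathway showed the short-gene pattern as well: the 451 with up to 400 coding bases and the same minimum mean level deviated by 0.36, 0.68, -0.27 and -0.27 in Mertk KO, -1.29, 0.59 and 0.00098 in Ptdss1 knockdown and 0.21, -0.32 and 0.79 in control. The sign was that of the members in every library except Ptdss1 knockdown replicate 3, where these genes lay near 0. The 4 libraries in which short subunits were lowest also had the fewest genes with at least 10 reads, 6995 to 10205, against 10727 to 11523 in the other 6. The part of the lower gene detection in this pattern was not tested.

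**Figure D3:**
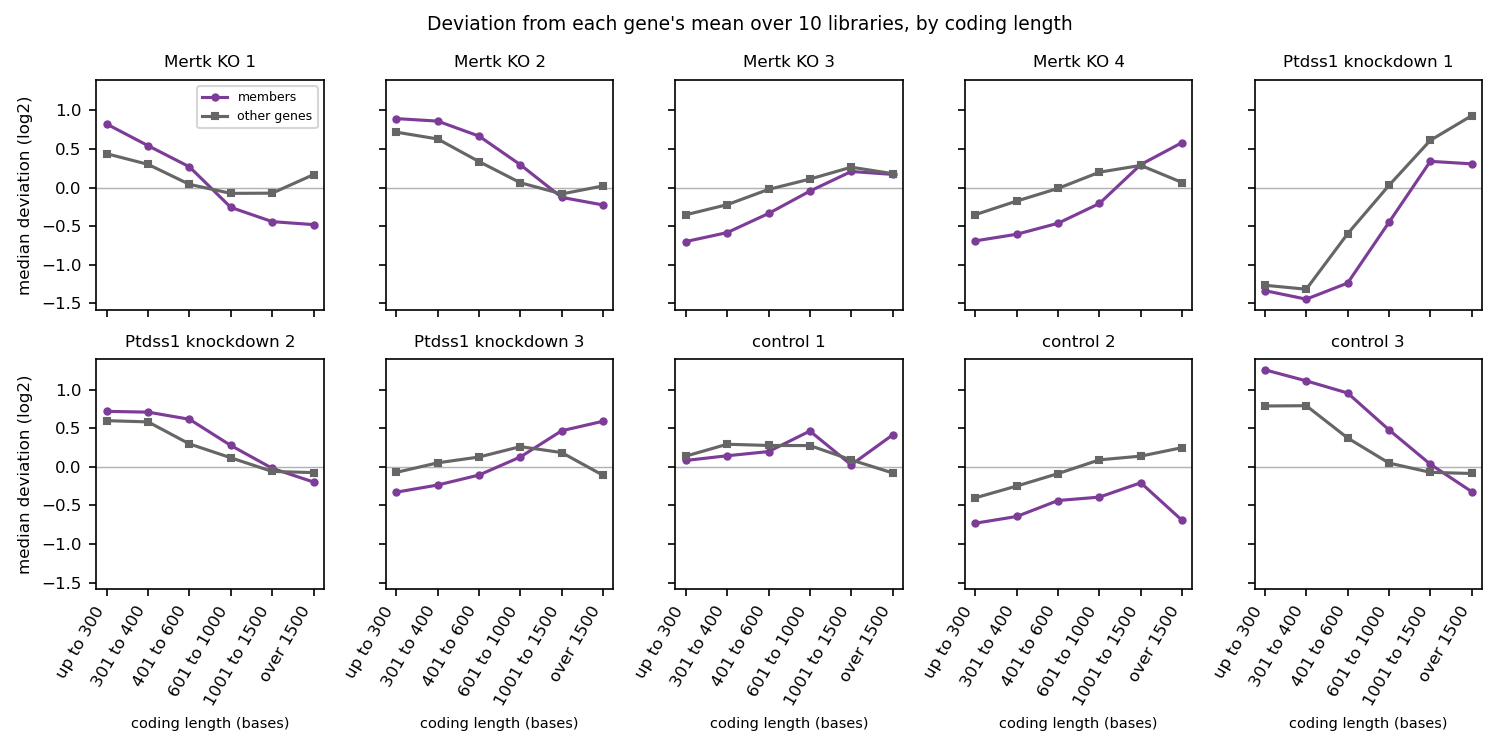
Median deviation from each gene's own mean over the 10 libraries (y axis, log2) by class of coding length (x axis, bases), in 1 panel per library. Purple circles are the 83 members with a mean level of at least 7 and grey squares the 7057 other genes at that level. Both lines start high on the left in Mertk KO 1 and 2, Ptdss1 knockdown 2 and control 3, and low on the left in Mertk KO 3 and 4, Ptdss1 knockdown 1 and control 2.

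**Figure D4:**
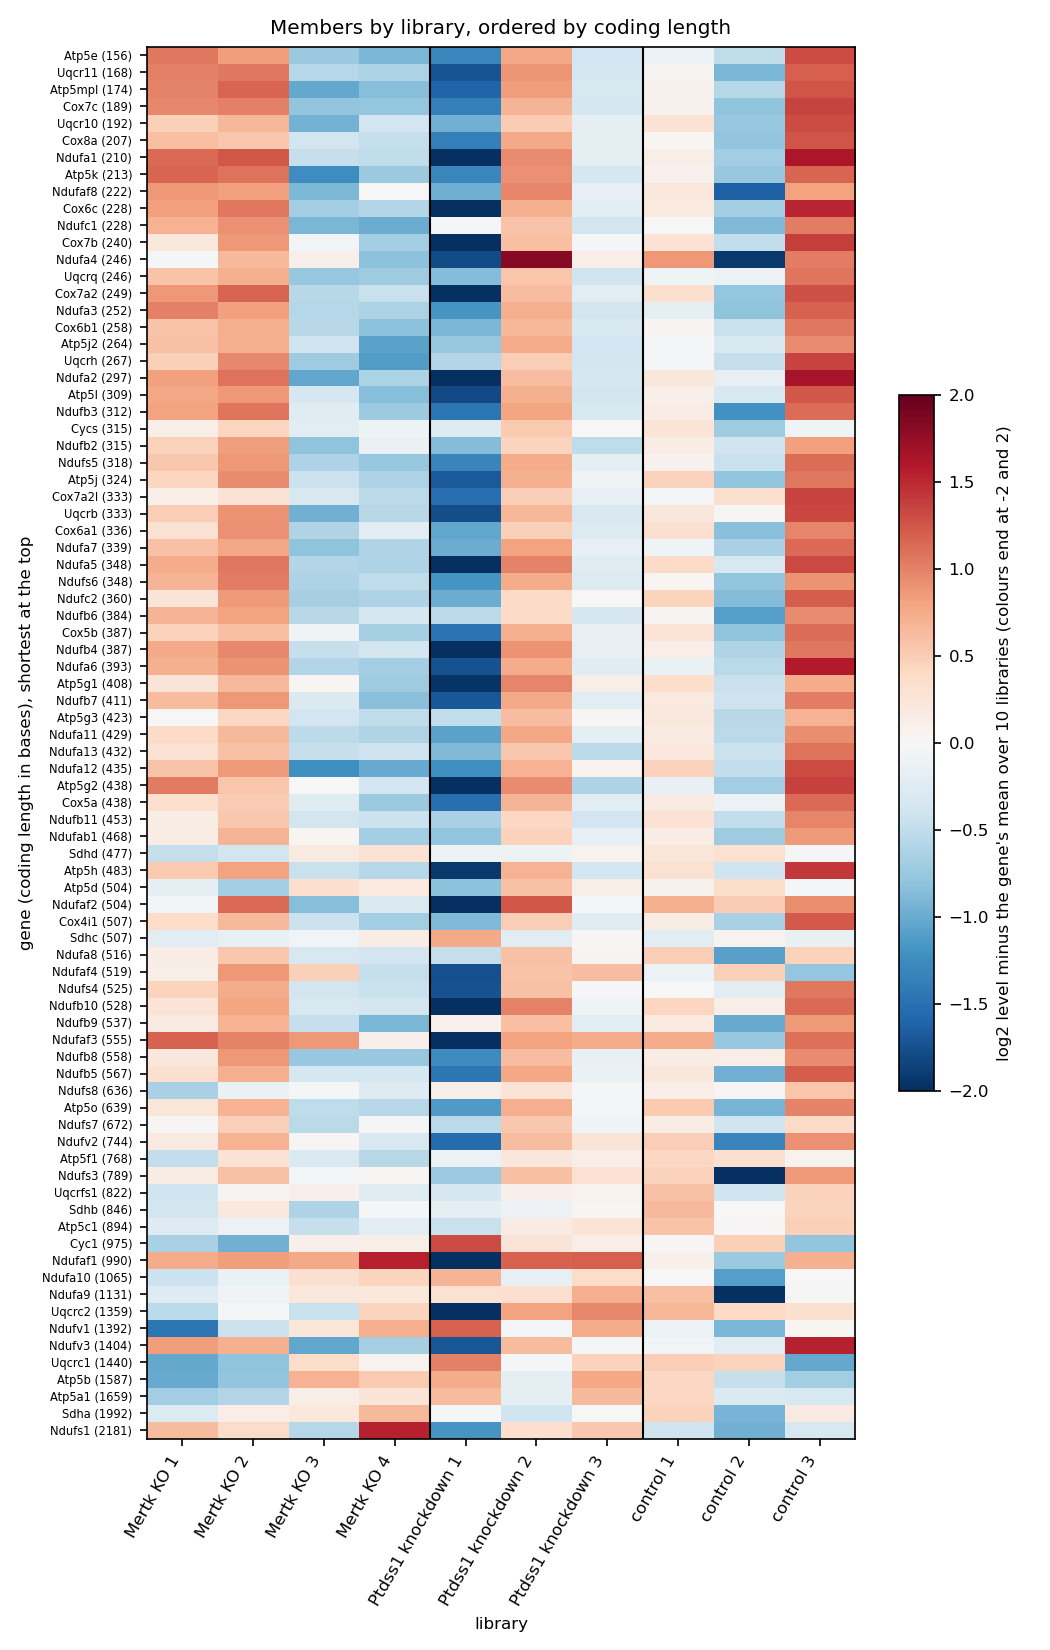
Deviation of 82 of the 83 members, each from its own mean over the 10 libraries (colour, log2, red high and blue low), with genes ordered from the shortest coding sequence at the top to the longest at the bottom and libraries in columns by group. The top rows change colour together from library to library within every group, while Sdhd, Sdhc and most of the bottom rows do not follow them and Ndufv3, near the bottom, does.

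The same contrast was seen between some subunits of a single complex, in pairs picked after their values were seen. In complex III, Uqcr11 is a very small subunit of 168 coding bases and Uqcrc1 a large core protein of 1440. The log2 level of Uqcr11 minus that of Uqcrc1 was 2.37, 2.21, -0.60 and -0.35 in Mertk KO, -2.39, 1.25 and -0.47 in Ptdss1 knockdown and -0.09, -1.03 and 2.56 in control. It changed sign within each group. In complex V, Atp5e (156 coding bases) minus Atp5b (1587), the epsilon and beta subunits of the F1 head, was 0.91, 0.47, -2.59 and -2.58 in Mertk KO, -3.21, -0.18 and -2.31 in Ptdss1 knockdown and -1.68, -1.20 and 0.84 in control. In complex I, Ndufa1 (210 coding bases) minus Ndufv1 (1392), the subunit that binds NADH, was 4.03, 3.11, 0.75 and 0.20 in Mertk KO, -2.92, 2.42 and 0.51 in Ptdss1 knockdown and 1.68, 1.65 and 3.02 in control. These are differences of levels that were not set per length, so their changes between libraries, and not their absolute size, carry the comparison. Other long subunits showed the contrast only in part. Uqcrc2 (1359 coding bases) deviated by -0.54 in Mertk KO replicate 1, where Uqcr11 deviated by 1.00. In Ptdss1 knockdown replicate 1 both were low, at -2.56 and -1.73. Ndufs1 (2181 coding bases) was on the side of Ndufa1 in these 2 libraries, at 0.63 and -1.18. In Mertk KO replicate 4 it was not, at 1.55 against -0.51.

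Some members did not follow others of like coding length, and the reason was not tested. Sdhd and Sdhc, which anchor complex II in the membrane, have 477 and 507 coding bases, and Cycs has 315. Their SDs over the 10 libraries were 0.27, 0.30 and 0.36, among the 7 lowest of the 83 members. Cox4i1, with the same 507 coding bases as Sdhc, moved from 12.72 to 14.82 across libraries. In the other direction, Ndufv3 (1404 coding bases in its principal transcript) deviated by 0.83, 0.71, -1.04 and -0.66 in Mertk KO, -1.71, 0.64 and -0.04 in Ptdss1 knockdown and -0.05, -0.21 and 1.54 in control, like the short subunits. Its annotated coding transcripts have a median length of 645 bases, and the values do not separate transcripts. The median SD over the 10 libraries was 0.34 for complex II, 0.79 for complex I, 0.77 for complex III, 0.80 for complex IV and 0.81 for complex V. It was 0.79 for the 83 members together and 0.92 for the 7057 other genes with a mean level of at least 7. The 2 sets were not matched in level above that floor, so these medians do not show whether members vary less than other genes.

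Among the core subunits of complex I none passed the threshold. Ndufs1, the largest of them, had log2 levels of 9.85, 9.59, 8.65 and 10.77 in Mertk KO, 8.05, 9.57 and 9.76 in Ptdss1 knockdown and 8.83, 8.27 and 8.91 in control. Mertk KO replicate 4 was the highest, and the ranges of Mertk KO and control overlap (log2 fold change 1.05, SE 0.68, limma adjusted p = 1.0, and 0.69 without that library). Ndufv1 had 8.15, 9.18, 9.85 and 10.34 in Mertk KO, 10.79, 9.59 and 10.34 in Ptdss1 knockdown and 9.49, 8.70 and 9.64 in control. Against control it differed by 0.96 in Ptdss1 knockdown (SE 0.66, limma adjusted p = 0.841), with 2 of 3 Ptdss1 knockdown libraries above every control library.

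Ndufs8, a core subunit with iron-sulphur clusters, lay below every control and Ptdss1 knockdown library in 4 of 4 Mertk KO libraries, at 10.72, 11.25, 11.33 and 11.11 in Mertk KO, 11.50, 11.65 and 11.35 in Ptdss1 knockdown and 11.51, 11.40 and 11.93 in control. The gap between groups was small (11.33 against 11.35 at the nearest), and the fold change of -0.51 against control had an SE of 0.40 (limma adjusted p = 1.0). Ndufa9, an accessory subunit near the quinone site, had 10.51, 10.71, 10.98 and 10.99 in Mertk KO, 11.07, 11.11 and 11.50 in Ptdss1 knockdown and 11.37, 8.66 and 10.80 in control. The low value of control replicate 2 sets its direction: the Mertk KO difference from control was 0.52 (SE 0.55) and became -0.29 without that library, and it was 1.07 without control replicate 1 and 0.78 without control replicate 3.

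Among the accessory subunits, Ndufa2 had 12.47, 12.74, 10.61 and 11.02 in Mertk KO, 9.44, 12.26 and 11.31 in Ptdss1 knockdown and 11.87, 11.48 and 13.30 in control. Ndufb10 had 11.69, 12.20, 11.08 and 11.04 in Mertk KO, 8.44, 12.40 and 11.32 in Ptdss1 knockdown and 11.83, 11.52 and 12.54 in control. Ndufa2 moved in the direction of the short subunits. Ndufb10 (528 coding bases) did so except in control replicate 2. There it deviated from its own mean by 0.11, against a median of -0.70 for the short subunits. Both genes had their lowest value in Ptdss1 knockdown replicate 1. Their differences between Ptdss1 knockdown and control were -1.22 (SE 0.71) and -1.24 (SE 0.73), each with limma adjusted p = 0.841, and became -0.43 and -0.10 without that library. Without Ptdss1 knockdown replicate 2 they were -1.85 and -2.08, and that of Ndufa2 was -0.68 without control replicate 3. Ndufb8, whose protein is often used to report assembled complex I, had 12.52, 13.16, 11.53 and 11.54 in Mertk KO, 11.04, 12.92 and 12.14 in Ptdss1 knockdown and 12.44, 12.43 and 13.24 in control, with overlapping ranges. Ndufb8 shares exon bases with Gm20538, a protein-coding gene model on the same strand.

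The complex I assembly factors, which help build the complex without remaining in it, had fewer than 10 reads in 7 of the 80 pairs of tested gene and library, and the 4 tested paralogs of other tissues in 9 of 40. Ndufaf5, a methyltransferase-like factor (chromosome 2, 140170649 to 140203689, plus strand, GRCm38), had 140, 390, 0 and 2 reads in Mertk KO, 445, 167 and 530 in Ptdss1 knockdown and 340, 175 and 297 in control. Its reads were thus near 0 in Mertk KO replicates 3 and 4 and in the usual range in replicates 1 and 2. It had the smallest unadjusted p of any member in Mertk KO, with log2 fold changes of -3.46 against control (SE 1.89, limma adjusted p = 1.0) and -3.73 against Ptdss1 knockdown (SE 1.89, limma adjusted p = 0.805). Without Mertk KO replicate 3 these Ndufaf5 differences were -2.01 and -2.29. Ndufaf1, Ndufaf3, Ndufaf6 and Ndufaf7 had 1, 7, 0 and 7 reads in Ptdss1 knockdown replicate 1, and Ndufaf7 had 9 in control replicate 2. Ndufaf3 shares exon bases with Impdh2 on the other strand, which had 1903 reads in Ptdss1 knockdown replicate 1.

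Direct comparison of Mertk KO with Ptdss1 knockdown gave positive fold changes for Ndufaf3 (2.19, SE 1.24) and Ndufaf1 (2.29, SE 1.62), each with limma adjusted p = 0.805. Without Ptdss1 knockdown replicate 1 these became 0.015 and -0.22, and without replicate 2 they became 3.30 and 3.54. That of Ndufaf1 was also 3.54 without Ptdss1 knockdown replicate 3. Against control, Ndufaf1 stood above all 3 libraries in 4 of 4 Mertk KO libraries (log2 fold change 0.95, SE 1.62, limma adjusted p = 1.0, and 0.57 without control replicate 2), at 7.98, 8.06, 7.99 and 8.78 in Mertk KO, against 7.33, 6.49 and 7.94 in control, and it was 0.90, 8.41 and 8.42 in Ptdss1 knockdown. Ndufaf7 had 6.13, 8.09, 7.88 and 8.72 in Mertk KO, 2.82, 8.40 and 8.73 in Ptdss1 knockdown and 8.44, 3.38 and 6.78 in control (Mertk KO minus control 1.50, SE 1.67, 0.092 without control replicate 2, 2.62 without control replicate 1, limma adjusted p = 1.0). Low reads were concentrated in the same libraries: 9 of the 91 tested members had fewer than 10 reads in Ptdss1 knockdown replicate 1 and 3 in control replicate 2, against at most 2 in any other.

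In complex II, Sdhb, the iron-sulphur subunit (chromosome 4, 140961203 to 140979193, plus strand, GRCm38), had 11.998, 12.58, 11.75 and 12.35 in Mertk KO, 12.18, 12.25 and 12.39 in Ptdss1 knockdown and 13.01, 12.37 and 12.82 in control. Its means were 12.17 ± 0.37 (SD, n = 4) in Mertk KO, 12.27 ± 0.11 (SD, n = 3) in Ptdss1 knockdown and 12.73 ± 0.33 (SD, n = 3) in control, with fold changes against control of -0.57 (SE 0.39, limma adjusted p = 1.0) and -0.46 (SE 0.41, limma adjusted p = 0.841). Mertk KO replicate 2 and Ptdss1 knockdown replicate 3 reached the lowest control library. Sdha, the flavoprotein that oxidises succinate, had 10.48, 10.88, 10.96 and 11.40 in Mertk KO, 10.73, 10.35 and 10.75 in Ptdss1 knockdown and 11.21, 9.82 and 10.93 in control. Sdhc averaged 11.19 ± 0.16 (SD, n = 4) in Mertk KO, 11.45 ± 0.52 (SD, n = 3) in Ptdss1 knockdown and 11.17 ± 0.15 (SD, n = 3) in control, and Sdhd 11.80 ± 0.39, 11.85 ± 0.10 and 12.07 ± 0.18 in the same order.

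In complex III, Cyc1, the cytochrome c1 subunit that reduces cytochrome c, lay below every Ptdss1 knockdown library in 4 of 4 Mertk KO libraries, at 10.25, 9.94, 10.998 and 11.01 in Mertk KO, against 12.21, 11.15 and 11.03 in Ptdss1 knockdown, with 10.92, 11.38 and 10.10 in control. The nearest values were 11.01 and 11.03, and the fold change of -0.91 had an SE of 0.49 (limma adjusted p = 0.805) and was -0.54 without Ptdss1 knockdown replicate 1. Uqcrc1 had 10.33, 10.55, 11.73 and 11.43 in Mertk KO, 12.36, 11.33 and 11.82 in Ptdss1 knockdown and 11.84, 11.80 and 10.33 in control (Mertk KO minus Ptdss1 knockdown -0.83, SE 0.51, limma adjusted p = 0.805). Uqcrfs1, the Rieske iron-sulphur protein, averaged 11.13 ± 0.24 (SD, n = 4) in Mertk KO, 11.20 ± 0.25 (SD, n = 3) in Ptdss1 knockdown and 11.47 ± 0.53 (SD, n = 3) in control. Uqcrc2, the other core protein, had 7.49 in Ptdss1 knockdown replicate 1 and 9.51 to 11.01 in the other 9 libraries. Cycs, the carrier between complexes III and IV, averaged 10.70 ± 0.28 (SD, n = 4) in Mertk KO, 10.72 ± 0.40 (SD, n = 3) in Ptdss1 knockdown and 10.46 ± 0.50 (SD, n = 3) in control.

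In complex IV most subunits moved together between libraries, and Ndufa4 did so only in part. In Mertk KO replicates 1 and 3 Ndufa4 deviated from its own mean by -0.04 and 0.10, where Cox7c deviated by 0.95 and -0.80. Cox4i1 averaged 13.57 ± 0.64 (SD, n = 4) in Mertk KO, 13.39 ± 0.69 (SD, n = 3) in Ptdss1 knockdown and 13.84 ± 0.94 (SD, n = 3) in control. Cox5a averaged 13.03 ± 0.57, 12.72 ± 1.10 and 13.46 ± 0.65 in the same order, Cox5b 12.03 ± 0.57, 11.64 ± 1.11 and 12.14 ± 0.96, Cox6c 12.37 ± 0.91, 11.66 ± 1.48 and 12.57 ± 1.11, Cox7c 11.50 ± 1.02, 11.06 ± 1.02 and 11.62 ± 1.08, and Cox8a 13.01 ± 0.58, 12.67 ± 1.06 and 13.10 ± 1.02. For each of these 6 the means differed by less than the larger SD of the groups. Cox7a2l, known as a supercomplex factor, had 11.58, 11.74, 11.12 and 10.91 in Mertk KO, 9.92, 11.94 and 11.29 in Ptdss1 knockdown and 11.40, 11.76 and 12.79 in control (Ptdss1 knockdown minus control -0.94, SE 0.55, limma adjusted p = 0.841). Without Ptdss1 knockdown replicate 1 this difference was -0.37, and without control replicate 3 it was -0.53.

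The forms of complex IV known from most tissues predominated over their paralogs of muscle, lung or testis. Per kilobase, Cox4i1 made up 97.3% to 100% of the Cox4i1 and Cox4i2 level in the 10 libraries, Cox6a1 98.2% to 99.98% beside the muscle form Cox6a2, and Cox6b1 97.0% to 100% beside the testis form Cox6b2. Cox8a was the only one of its family with reads. Cox7a2 made up 47.1% to 75.4% and Cox7a2l 21.1% to 51.2% of the Cox7a family, and the muscle form Cox7a1 0% to 3.48%. The skeletal muscle marker list summed to at most 3.87 CPM in any library, with 1.46 or less in Mertk KO, 2.36 or less in Ptdss1 knockdown and 3.87 or less in control, so the reads of muscle forms came with few reads of muscle genes. In the ATP synthase, Atp5g3 made up 82.9% to 94.9% of the level of the 3 genes that encode the same c-ring subunit, Atp5g1 4.15% to 13.5% and Atp5g2 0.959% to 5.17%.

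Cox4i2, a form known from lung and from hypoxic cells, was present in some libraries and nearly absent in others. It had 129, 281, 2 and 0 reads in Mertk KO, 6, 340 and 468 in Ptdss1 knockdown and 183, 0 and 441 in control. Every group held at least 1 library with 6 reads or fewer, and these were the same 4 libraries in which short subunits were low. Cox7a1 had 108, 275, 65 and 72 reads in Mertk KO, 0, 57 and 120 in Ptdss1 knockdown and 21, 46 and 186 in control, and the Mertk KO minus Ptdss1 knockdown difference of 2.69 (SE 1.80, limma adjusted p = 0.805) became 0.69 without Ptdss1 knockdown replicate 1. Cox6b2 had 0, 32, 160 and 23 reads in Mertk KO, 0, 60 and 25 in Ptdss1 knockdown and 28, 0 and 27 in control. Cox6a2 had between 36 and 155 reads in 9 libraries and 1 in Ptdss1 knockdown replicate 1. It shares exon bases with Itgad on the other strand, which had 23 reads in Mertk KO replicate 2 and at most 2 elsewhere.

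**Figure D5:**
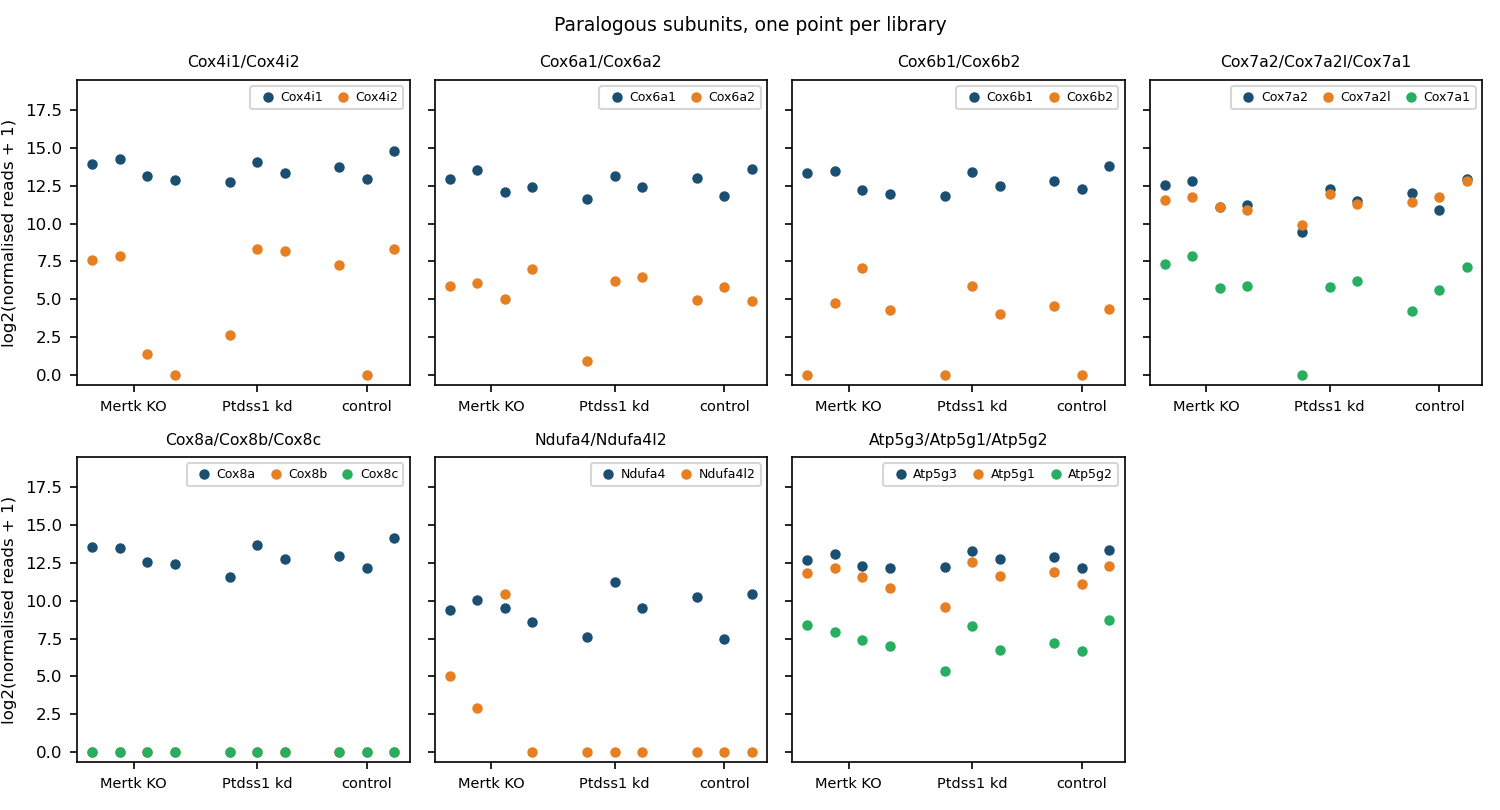
Log2 levels (y axis, log2 of normalised reads plus 1) of paralogous subunits, 1 point per library, with the libraries of Mertk KO, Ptdss1 knockdown (kd) and control from left to right. The first form named (dark blue) is far above its paralogs in the Cox4i, Cox6a, Cox6b and Cox8 panels. Cox7a2 and Cox7a2l are close, Atp5g1 runs below Atp5g3, and Ndufa4l2 exceeds Ndufa4 in Mertk KO replicate 3 on this scale, which is not set per length.

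In complex V, Atp5c1, the gamma subunit that turns within the F1 head (chromosome 2, 10056016 to 10080510, minus strand, GRCm38), lay below all control libraries in 4 of 4 Mertk KO libraries. It had 12.11, 12.25, 11.92 and 12.16 in Mertk KO, 11.92, 12.53 and 12.64 in Ptdss1 knockdown and 12.93, 12.39 and 12.85 in control. The means were 12.11 ± 0.14 (SD, n = 4) in Mertk KO and 12.73 ± 0.29 (SD, n = 3) in control, giving a Mertk KO minus control difference of -0.62 (SE 0.38, limma adjusted p = 1.0). Atp5s, known as a coupling factor, was lower than every control library in both other groups, at 7.34, 7.41, 6.47 and 7.42 in Mertk KO, 1.85, 7.43 and 6.81 in Ptdss1 knockdown and 7.63, 8.13 and 7.72 in control, with fold changes of -0.67 (SE 1.49, limma adjusted p = 1.0) and -2.46 (SE 1.60, limma adjusted p = 0.841). Leaving out Ptdss1 knockdown replicate 1, where it had 3 reads, the difference between Ptdss1 knockdown and control was -0.70, and without Mertk KO replicate 3 that between Mertk KO and control was -0.43.

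Few members had groups without overlap. For Mertk KO against control, 1 member (Ndufaf1) lay wholly above control and 3 (Atp5c1, Atp5s and Ndufs8) wholly below, beside 3.00% and 2.62% of all genes tested. In Ptdss1 knockdown against control, 0 members lay above, beside 3.32%, and 1 (Atp5s) below, beside 3.60%. For Mertk KO against Ptdss1 knockdown, 0 lay above, beside 2.91%, and 3 (Cyc1, Ndufa9 and Ndufs8) below, beside 2.32%.

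The catalytic subunits of the F1 head went with the long genes. Atp5b had 12.19, 12.42, 13.91 and 13.72 in Mertk KO, 13.95, 13.01 and 13.99 in Ptdss1 knockdown and 13.62, 12.75 and 12.51 in control. Atp5a1 had 11.96, 12.07, 12.77 and 12.90 in Mertk KO, 13.28, 12.45 and 13.29 in Ptdss1 knockdown and 13.06, 12.37 and 12.32 in control. Both were low in Mertk KO replicates 1 and 2 and high in Ptdss1 knockdown replicates 1 and 3, and Atp5b differed by 0.69 between Ptdss1 knockdown and control (SE 0.52, limma adjusted p = 0.841). Atp5o, the subunit of the stalk that confers oligomycin sensitivity, averaged 11.55 ± 0.61 (SD, n = 4) in Mertk KO, 11.44 ± 0.94 (SD, n = 3) in Ptdss1 knockdown and 11.78 ± 1.00 (SD, n = 3) in control.

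Other gene lists of mitochondrial function had 0 genes past the threshold in each comparison. Medians of all genes tested, for reference, were 0.016 in Mertk KO and -0.053 in Ptdss1 knockdown against control, and 0.11 in Mertk KO against Ptdss1 knockdown. Of 14 TCA cycle genes, the median log2 fold change was -0.11 in Mertk KO and 0.45 in Ptdss1 knockdown against control, and -0.65 in Mertk KO against Ptdss1 knockdown. Idh3g, a regulatory subunit of isocitrate dehydrogenase, had 9.73, 9.36, 10.23 and 10.28 in Mertk KO, against 11.90, 10.36 and 10.94 in Ptdss1 knockdown (-1.17, SE 0.49, limma adjusted p = 0.805, and -0.75 without Ptdss1 knockdown replicate 1). The 78 mitochondrial ribosomal protein genes had medians of -0.11, -0.35 and 0.24 in the 3 comparisons in that order, beside -0.16, -0.43 and 0.30 for the members. At an unadjusted p below 0.05 they held 2 of 78 for Mertk KO against control, Mrpl49 (-1.59) and Mrpl44 (-3.22), beside 2.06% of all genes. For Mertk KO against Ptdss1 knockdown they held 2 of 78, Mrpl16 (-1.47) and Mrpl44 (-3.25), beside 3.73% of all genes. Without Mertk KO replicate 3 the Mrpl44 differences were -1.64 and -1.67. The 37 OXPHOS assembly factors outside the name rule had -0.049, -0.36 and 0.60. In the last comparison 1 of the 37, Tmem70 (-1.56), was at an unadjusted p below 0.05, beside 3.73% of all genes. The 14 tested regulators of mitochondrial gene expression had -0.014, -0.22 and 0.16. The 9 mitochondrial carriers and channels had -0.22, -0.040 and 0.030, and the 11 coenzyme Q synthesis genes -0.021, -1.19 and 1.35. In Ptdss1 knockdown replicate 1, Coq5 and Coq8b had their lowest levels, 0.90 and 1.85, and Coq2 its highest, 10.17. The part of that library in the medians of these lists was not tested. Gabpa, which encodes the GABPA factor, had 8.43, 8.51, 7.001 and 8.89 in Mertk KO and 12.42, 8.23 and 8.75 in Ptdss1 knockdown, with its highest value in Ptdss1 knockdown replicate 1.

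Markers of other cells were low beside those of macrophages. The ranges of the epithelial or tumour list and of the T and NK cell list in Mertk KO did not overlap those of the other groups. The epithelial or tumour list summed to 62.5 to 159 CPM in Mertk KO, 0.213 to 57.1 in Ptdss1 knockdown and 20.4 to 30.9 in control, with 0 of its 4 markers read in every library. The T and NK cell list summed to 14.5 to 52.8 in Mertk KO, 62.1 to 153 in Ptdss1 knockdown and 102 to 200 in control, with 1 of the 5 listed genes found in the tables read in every library. The fibroblast list reached 40.2 in Mertk KO, 7.72 in Ptdss1 knockdown and 3.59 in control, with overlapping ranges. The endothelial list ranged over 31.0 to 79.5, 28.1 to 95.1 and 39.2 to 63.9 in the same order, which overlap. The dendritic cell, B cell and neutrophil lists reached at most 25.3, 14.6 and 6.70 in any library, also with overlapping ranges. Adipoq, the defining adipocyte marker, was at 0 in all libraries, and the adipocyte list summed to at most 1.17 in any library. The part of these cells in the levels of the members was not tested.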

How the data were processed

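RNA sequencing of sorted macrophages was analysed in 10 libraries. Per the labels' protocols, mRNA was copied with the SMART-Seq v4 kit, amplified by 16 PCR cycles and made into ThruPLEX libraries, which do not mark strand, and read by 75 cycles on a NextSeq 500. The submitters' processing notes name STAR, RSEM and mm10, and give no versions or roles. The authors deposited 1 table of log2 values per library. No header states the unit. Undoing log2(value + 1) gave whole read counts, within a tolerance of 0.01, for 100% of the deposited values in each library, so the values were taken as log2 of normalised reads plus a pseudocount of 1. There are no molecular identifiers, so the reads are not independent molecules. All 21938 IDs matched GENCODE M21 (GRCm38) as protein-coding genes, none mitochondrial. Without strand, 22 tested members that share exon bases with a protein-coding gene of the other strand cannot be told apart from it.

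The members and lists were chosen with earlier results of these data known. The 11564 genes reaching 10 recovered reads in 3 or more libraries were tested with limma-trend (limma 3.58.1, R 4.3.3), a mean per group over all 10 libraries, robust moderation, two-sided tests and Benjamini-Hochberg adjustment over all genes. The test was checked on simulated data. No covariate was used, since the labels give no batch or pairing. The genes named are those with the 3 smallest unadjusted p per comparison and direction, a fixed set of core subunits, paralog sets, the highest and lowest level per length in each complex, members outside the filter and up to 2 genes of smallest p per other list; Ndufs8, Atp5s, Ndufaf6, Ndufa1, Uqcr11, Atp5e, Ndufv3 and Ndufa6 were named after their values were seen. Alternatives were other size factors, other filters on low reads, voom, a larger pseudocount, the compared groups alone, library weights, libraries left out and, chosen after seeing the data, centring by coding length. Coding length is that of the principal annotated transcript. Percentages are of a library's recovered reads. Promoter sequences are from RefSeq. In no pair of replicates did counts agree within sampling noise (chi-square per degree of freedom at least 87.7). The values of 1 member are not reported here.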

Additional observations from a re-analysis of the deposited data

Results flagged for a closer look

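Ndufaf1 in Mertk KO had 1 library far from the others of its group. Mertk KO replicate 4 had a log2 level of 8.78, against 7.98, 8.06 and 7.99 in the other 3, a gap of 0.898 of the whole range, above Dixon's critical value for 4 samples. Of 50 groups of values examined this way 1 was picked out, and chance picks out about 1 in 20. The same library also had the highest Ndufs1 level, 10.77.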

How the results depend on the processing

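No paired analysis was possible because the labels give the groups no shared replicate numbers. The count of members past the threshold was 0 under every alternative run. The count over all genes moved. In Mertk KO against control it was 25 with library weights and 0 with no filter, with a filter of 50 reads or centred by coding length, and ran from 0 to 4 when leaving out each library, against 2 as reported. It was 2 with library weights in Ptdss1 knockdown against control. In Mertk KO against Ptdss1 knockdown it was 35 with library weights, and 1 when centred by coding length or without control replicate 2 and Ptdss1 knockdown replicate 1. Among the named members with the smallest p in each comparison, fold changes of 3 turned direction, none past the threshold. Over all 91 tested members, 82 were negative for Mertk KO against control without control replicate 2, against 64 as reported, and 43 for Ptdss1 knockdown against control without Ptdss1 knockdown replicate 1, against 71. Ndufa9 in Mertk KO against control was -0.29 with library weights, without control replicate 2, and without control replicate 2 and Ptdss1 knockdown replicate 1. When leaving out each library, it ran from -0.29 to 1.07. Ndufaf7 there was -0.053 with library weights. Ndufaf1 in Mertk KO against Ptdss1 knockdown was -0.24 with library weights, and -0.22 without Ptdss1 knockdown replicate 1, with or without control replicate 2, and ran from -0.22 to 3.54 when leaving out each library. The causes were not tested, beyond the libraries left out. When leaving out each library, the median of the members ran from -0.55 to 0.20 in Mertk KO against control, from -0.88 to 0.022 in Ptdss1 knockdown against control and from -0.21 to 0.76 in Mertk KO against Ptdss1 knockdown. Of the other alternative values for single genes, 335 kept their direction and side of the threshold. Low counts limit the assembly factors and tissue paralogs, whose fold changes on this scale depend on single libraries near 0 reads.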
